A study of Mus musculus with 2 samples.

Results

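The genes described here build the thin filament of heart muscle and its anchors: the sarcomeric actins Actc1 and Acta1, the tropomyosins Tpm1, Tpm2 and Tpm3, the alpha-actinin Actn2, the tropomodulin Tmod1 and the leiomodin Lmod2. EP300 peaks were taken from the optimal list, which holds 17372 peaks, of which 17339 lie on the main chromosomes. A peak belonged to a gene when the closest transcription start site (TSS) of any protein-coding transcript was that gene's and lay within 100 kb of the summit. By this rule 36 of the 17339 peaks belonged to 6 of the 8 genes. No peak of the optimal list was assigned to Acta1 or Tpm2.

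The peaks come from chromatin immunoprecipitation and sequencing (ChIP-seq) of EP300, also called p300, in heart tissue of B6NCrl mice on the day of birth (age 0 days); the labels name no genetic change or treatment. The 2 libraries form 1 group, replicates 1 and 2, and share a biosample and a donor label, so differences between them measure the spread of these libraries, which may be technical. The series holds no other condition, and no test between groups was possible. Heart tissue mixes cell types, so a peak cannot be tied to one of them.

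EP300 acetylates histones and is recruited to enhancers and promoters by transcription factors. In the sarcomere, actin filaments run from the Z-disc, where alpha-actinin crosslinks them, towards the centre, where tropomodulin and leiomodin act at their free pointed ends. Tropomyosin lies along the filament and, with troponin, sets when myosin can bind. Serum response factor, which binds the CArG box, and MEF2 factors are textbook regulators of the muscle actin genes.

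The labelled tissue was checked by counting assigned peaks at marker genes. All 6 heart muscle markers had a peak, from 1 at Nppa to 27 at Myh6, as did all 4 endothelial markers. None of the 4 smooth muscle markers had one. Of the 6 genes listed as skeletal muscle markers 2 had a peak, Myog with 3 and Ckm with 1. Of the fibroblast markers 3 of 4 had a peak, with 1 each, and of the liver markers 2 of 4. Of the macrophage and of the neuronal markers 1 of 4 each had one. Over all protein-coding genes 31.9% had at least 1 assigned peak. The part of other cell types in the results was not tested.

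Actc1 and Actn2 held most of the peaks. Actc1 had 12, Actn2 11, Lmod2 5, Tpm1 4, and Tpm3 and Tmod1 2 each. Of all 21829 protein-coding genes 31.9% had at least 1 assigned peak, 16.1% at least 2, 4.93% at least 4, 3.04% at least 5 and 0.334% at least 11. By number of peaks Actc1 stood at rank 37 of all genes and Actn2 at rank 52. Adjoining calls count separately here, and joined into sites Actc1 had 7 and Actn2 8. Ranks by site were not computed. Signal was above the median of all optimal peaks at 3 of the 12 Actc1 peaks and 4 of the 11 Actn2 peaks. By summed signal, the authors' signal value added over a gene's calls, Actn2 (336.9) stood at rank 137 and Actc1 (330.6) at rank 146. Lmod2 (153.8) and Tpm1 (140.9) followed, then Tmod1 (71.5) and Tpm3 (55.8). Adjoining calls each add to this sum. The 8 genes together held 6.61 peaks per 100 kb of territory, the DNA closest to their own start sites, against 0.972 over all genes. The genes were chosen with earlier results of these data known, so these ranks and densities are descriptions.

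**Figure D1:**
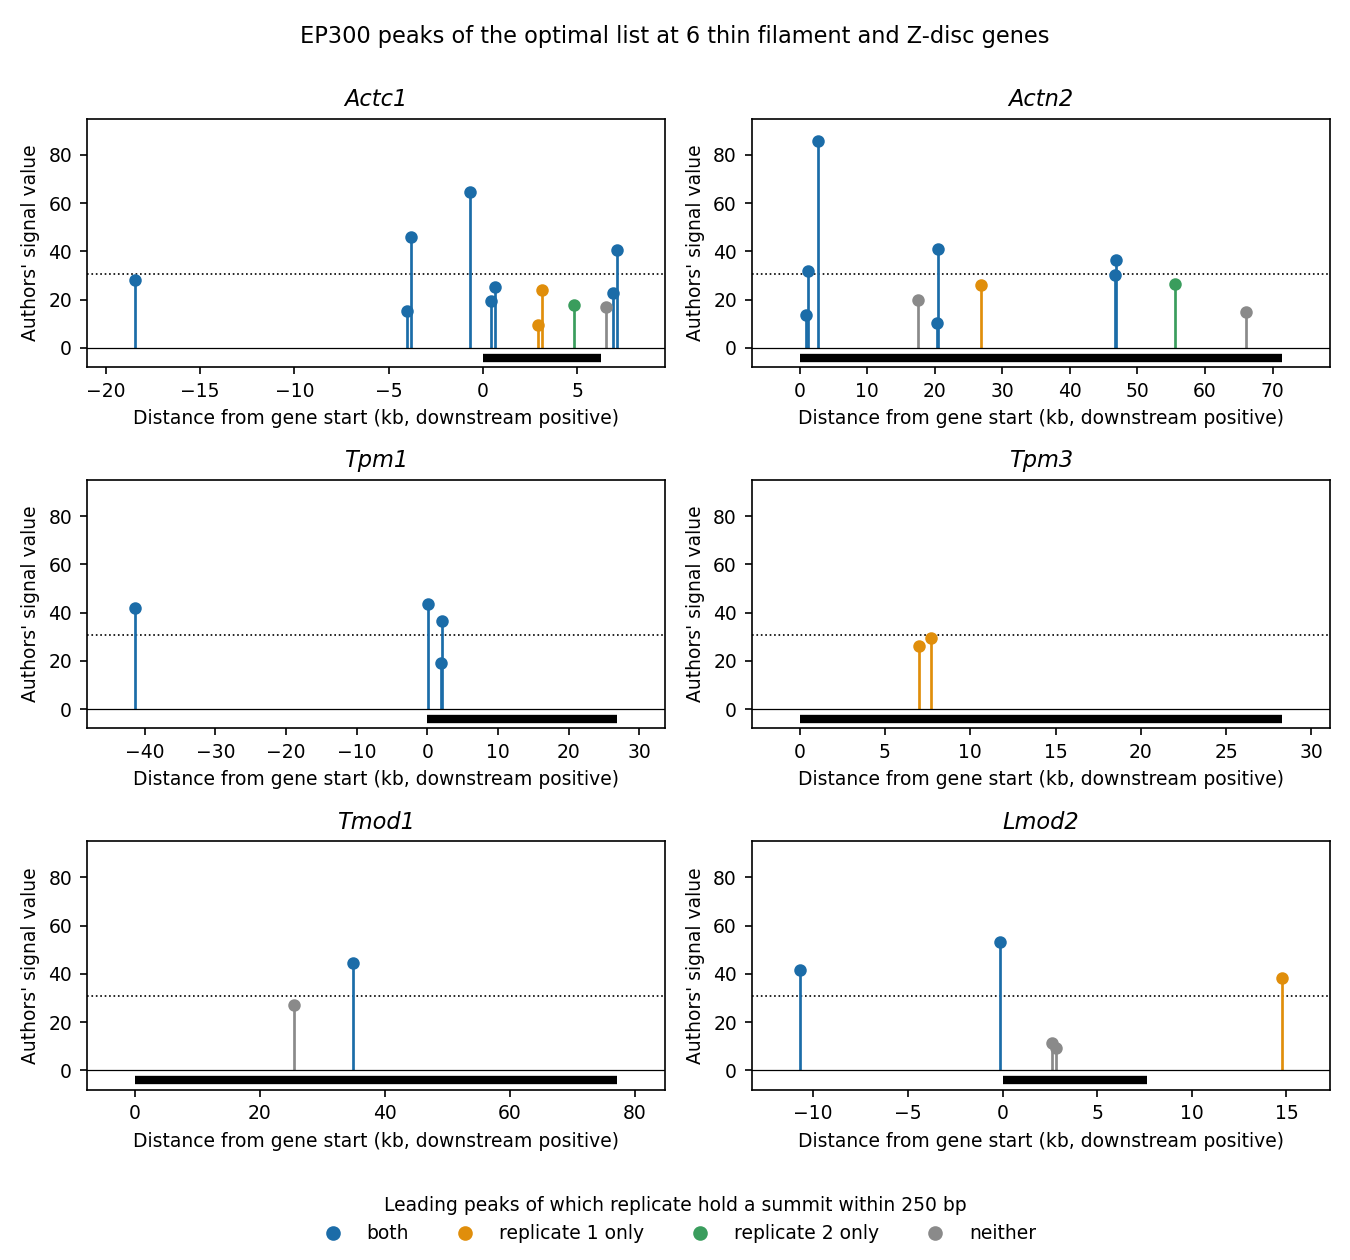
Each stem is an EP300 peak of the optimal list, placed by its distance from the annotated gene start (x axis, kb) and drawn to the authors' signal value (y axis); the black bar is the gene body, the dotted line the median signal of all optimal peaks (30.6), and the colour says which replicate had a summit within 250 bp among its leading peaks. Actc1 peaks stand on both sides of the gene, whereas the 11 Actn2 peaks all lie inside it.

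Single peaks at these genes had middling signal values. Their signal ran from 9.46 to 85.9 with a median of 26.8, while the median of all optimal peaks was 30.6 and the highest value 310.9. Above that median stood 14 of the 36 (38.9%, against 50% by construction). A deposited −log10 q of at least 2 was reached by 16 of the 36 peaks (44.4%), against 57.7% of all optimal peaks. Summits within 500 bp of each other joined the 36 calls into 26 sites, of which 17 held 1 call, or 1.385 calls per site against 1.234 over all optimal peaks. Introns held 22 of the 36 summits (61.1%, 95% exact interval 43.5% to 76.9%), against 42.8% of all optimal peaks. Actn2 alone gave 11 of these 22. Of the 36, 8 (22.2%, 95% exact interval 10.1% to 39.2%) lay within 1 kb of a TSS, against 33.5% of all optimal peaks. Both intervals treat the calls as independent, which adjoining calls of a site are not. The median distance to the TSS was 3908.5 bp, against 8080 bp over all optimal peaks. All optimal peaks include 1769 that lie over 100 kb from a TSS, which the rule leaves out here. The intron shares, promoter shares and distances are therefore not compared on like terms. The farthest assigned peak lay 41410 bp away, at Tpm1, and the next, beyond the limit and therefore left out, lay 111740 bp from a Tpm1 start with a signal of 52.8.

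Cardiac actin, Actc1, is the main actin of the heart muscle filament (ENSMUSG00000068614.7, chromosome 2, 114047282 to 114053548, minus strand, mm10). Its 12 peaks joined into 7 sites spread over 25.6 kb. The strongest peak (114053989 to 114054484) had a signal of 64.8 and lay 689 bp upstream of the gene start, inside the non-coding gene A530058N18Rik. Replicate 1 called it with a signal of 30.6 at rank 2931 of its 300000 calls, and replicate 2 with 34.3 at rank 1011. Both libraries thus placed this site high in their lists. The strongest summit of each gene with a peak is printed, to show the DNA under it. Here a MEF2 match, in capitals, lies 13.5 bp from the summit; the sequence of 200 bases is from RefSeq, GRCm38, chr2:114054137-114054336, minus strand.
Actc1 strongest summit: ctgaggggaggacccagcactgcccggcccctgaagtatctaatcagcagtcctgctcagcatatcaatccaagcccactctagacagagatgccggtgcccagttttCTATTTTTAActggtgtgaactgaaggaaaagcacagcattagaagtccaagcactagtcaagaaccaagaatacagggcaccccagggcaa

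Upstream of Actc1, a site 3805 bp before the gene start had a signal of 45.8, with 26.7 (rank 4135) in replicate 1 and 13.0 (rank 11377) in replicate 2. It too lies inside non-coding transcripts, A530058N18Rik and the antisense gene C130080G10Rik. The most distant Actc1 peak, 18467 bp upstream in intergenic DNA, had a signal of 28.0, with 18.02 (rank 9847) and 10.8 (rank 16750). A MEF2 match, in capitals below, lies 4.5 bp from this summit (chr2:114071965-114072064, GRCm38, minus strand). Both of these upstream sites were higher in the list of replicate 1 than in that of replicate 2.
Actc1 far upstream summit: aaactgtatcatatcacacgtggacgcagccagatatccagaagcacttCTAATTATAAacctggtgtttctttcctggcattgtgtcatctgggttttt

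The annotation gives Actc1 a second start inside the gene, which is close to the RefSeq start. A peak of signal 25.4 had its summit 11 bp upstream of that second start. Replicate 1 called it at 13.7 (rank 16409), and replicate 2 had a call of 13.6 (rank 10440) 191 bp away. In this window stood the CArG match of the set, the only one in the 36 windows of 200 bp, 19.5 bp from the summit. A neighbouring call of signal 19.4 lay 214 bp upstream of the same start. The promoter is printed below beside that of Acta1.

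Downstream, 3 calls formed a site past the end of Actc1, 6438 bp from the nearest start, whose highest signal was 40.5. Replicate 2 called it at 28.1 (rank 1759) and replicate 1 at 18.6 (rank 9310), so this site stood higher in replicate 2. Inside the gene some calls had a partner within 250 bp in a single replicate. A call of signal 24.1 over a coding exon had a replicate 1 call of 22.8 (rank 5998) and no replicate 2 call within 250 bp. An intronic call of 17.6, 4186 bp from the nearest start, had a replicate 2 call of 14.9 (rank 8497) and no replicate 1 call within 250 bp. Just past that limit, 3932 bp from the nearest start, replicate 1 had a call of 14.2 (rank 15449). The pooled list had one of 29.4 (rank 9977) 3923 bp from that start. With starts of non-coding genes counted too, Actc1 had 8 peaks rather than 12. Of the 12 Actc1 peaks, 8 had a summit within 250 bp among the leading peaks of both replicates, where leading means as many of the highest peaks as the optimal list holds.

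Acta1, the actin of skeletal muscle, which the heart also expresses, had no optimal peak (ENSMUSG00000031972.5, chromosome 8, 123891769 to 123894751, minus strand). The nearest one, with a signal of 36.5, lay 172251 bp from the gene start and closest to Urb2. The full lists held 1 pooled call for Acta1, with a signal of 7.40 at rank 250060 of 300000, 3 calls in replicate 1, the highest of 6.03 at rank 121832, and 1 call in replicate 2, of 6.34 at rank 78233. None of these lay within 1 kb of the Acta1 start, and neither the conservative list nor the leading peaks of a replicate added one. Calls at Acta1 were thus few and low in each list, where Actc1 had 29 to 38 calls.

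Both actin promoters carry a CArG match, which is why they are shown. The letters are the 250 bases before the RefSeq start from the RefSeq promoter table (GRCm38.p6), chr2:114052876-114053125 for Actc1 and chr8:123894776-123895025 for Acta1, both on the minus strand. Capitals mark the matches to the motifs searched. In Actc1 this is the CArG box CCAAATAAGG alone. In Acta1, in order, they are the E-box CAGCTG, the SP/KLF site GGGCGG, the CArG box CCAAATATGG, the TEAD site CATTCC and a further SP/KLF site. A CArG match was in 1.63% of 32817 promoters of that table (250 bases before to 50 after the start). The letters of a CArG box were thus present in a promoter with a called summit and in one without.
Actc1 promoter: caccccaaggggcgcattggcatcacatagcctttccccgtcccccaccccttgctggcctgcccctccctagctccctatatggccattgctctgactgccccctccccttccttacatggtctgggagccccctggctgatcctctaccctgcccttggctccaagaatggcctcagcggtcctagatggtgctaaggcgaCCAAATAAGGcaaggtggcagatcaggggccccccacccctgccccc
Acta1 promoter: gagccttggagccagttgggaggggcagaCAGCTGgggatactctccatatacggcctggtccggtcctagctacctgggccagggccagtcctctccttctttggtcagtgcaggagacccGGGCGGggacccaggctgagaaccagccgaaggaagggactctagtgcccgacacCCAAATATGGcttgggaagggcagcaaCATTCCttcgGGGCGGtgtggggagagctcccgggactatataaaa

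Actn2, an alpha-actinin of heart and skeletal muscle, had the highest single peak among the 8 genes (ENSMUSG00000052374.16, chromosome 13, 12269426 to 12340760, minus strand). It lay in an intron, 2755 bp from the gene start (12337757 to 12338252), with a signal of 85.9, rank 670 of the optimal list. Replicate 1 called it at 58.4 (rank 377) and replicate 2 at 24.0 (rank 2753). It stood high in both lists and higher in that of replicate 1. The 200 bases at its summit carry a TEAD match (GGAATG) and a MEIS match (CTGTCA), in capitals, 55.5 and 25.5 bp away on opposite sides in the order printed (chr13:12337905-12338104, GRCm38, minus strand).
Actn2 strongest summit: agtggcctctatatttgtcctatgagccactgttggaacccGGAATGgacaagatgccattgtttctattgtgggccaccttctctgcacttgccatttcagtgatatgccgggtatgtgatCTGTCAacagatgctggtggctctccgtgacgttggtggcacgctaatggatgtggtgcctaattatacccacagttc

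All 11 Actn2 peaks lay in its introns, in 8 sites spread over 65.1 kb. The site next to the gene start had its highest summit 1160 bp inside, with a signal of 32.0, 16.1 in replicate 1 and 15.3 in replicate 2. A GATA match lay 0.5 bp from that summit. Sites 20467 and 46849 bp inside had signals of 41.0 and 36.5 and were among the leading peaks of both replicates. The call 26902 bp inside, of signal 26.0, had 22.3 (rank 6347) in replicate 1 and no replicate 2 call within 250 bp. The call 55597 bp inside, of signal 26.5, had 15.1 (rank 8248) in replicate 2 and 11.5 (rank 23046) in replicate 1. With only 1 start counted per gene, Actn2 kept 7 peaks. In all, 7 of the 11 peaks were among the leading peaks of both replicates.

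At the start of Actn2 itself the lists differed. A pooled call 19 bp from an Actn2 start had a signal of 28.2, rank 10787 of the pooled list, with 15.5 in replicate 1 (rank 13154) and 12.3 in replicate 2 (rank 12857). The conservative list holds this call and the optimal list does not, although the optimal list keeps an Actn2 call of 13.7, 961 bp inside the gene. The optimal list therefore counts 1 Actn2 peak within 1 kb of a start, and that is the 13.7 call.

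Tpm1, the main tropomyosin of heart muscle, had 4 peaks in 3 sites, and all 4 were among the leading peaks of both replicates (ENSMUSG00000032366.15, chromosome 9, 67022590 to 67049406, minus strand). The strongest, of signal 43.5, had its summit 1 bp from a Tpm1 start, in an untranslated exon of a longer transcript. Replicate 2 called it at 27.0 (rank 1966) and replicate 1 at 21.8 (rank 6669), 135 bp away. A TEAD match, GGAATG, lay 1.5 bp from the summit, and an SP/KLF match lay 72.5 bp from it. The 27 bases around the summit, which leave out the SP/KLF match, are shown (chr9:67049253-67049279, GRCm38, minus strand).
Tpm1 strongest summit: gctgtcctaaGGAATGcggtcgccccc

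The other Tpm1 sites had like signal values. An intronic site 2086 bp inside had a signal of 36.5, with 18.7 in replicate 1 and 18.2 in replicate 2. The intergenic peak 41410 bp upstream had 41.9, with 21.4 and 18.9. Each replicate alone gave Tpm1 more peaks than the optimal list did: 7 among the leading peaks of replicate 1 and 10 among those of replicate 2. The additional calls differed. Outside the optimal list, replicate 1 had 4, the highest of which, with a signal of 19.1, lay 21 bp upstream of an internal Tpm1 start. Replicate 2 had 6, which lay 4578 to 23444 bp inside the gene at ranks 9678 to 14609.

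Tpm3, a tropomyosin of slow skeletal muscle and of non-muscle cells, had 2 peaks, both at its internal starts and none at the gene start (ENSMUSG00000027940.18, chromosome 3, 90072649 to 90100902, plus strand). The higher one, of signal 29.6, lay 92 bp upstream of a start, and the other, of 26.2, 15 bp upstream of another. Replicate 1 called them at 22.0 (rank 6562) and 18.5 (rank 9333), replicate 2 at 8.31 (rank 32330) and 7.84 (rank 38508). At these summits both therefore ranked far higher in replicate 1 than in replicate 2. The strongest Tpm3 call of replicate 2 lay between the summits, 136 bp from a start, and was too far from either to be matched. It had a signal of 10.3 at rank 18651, a little below the leading peaks of replicate 2. Without replicate 1 Tpm3 thus had no leading peak, although this call came close. GC content was 65.0% in both windows, where the median over all optimal peaks was 53.0%. The window of the higher peak, cut where the exon begins, holds none of the motifs searched (chr3:90080250-90080441, GRCm38, plus strand).
Tpm3 strongest summit: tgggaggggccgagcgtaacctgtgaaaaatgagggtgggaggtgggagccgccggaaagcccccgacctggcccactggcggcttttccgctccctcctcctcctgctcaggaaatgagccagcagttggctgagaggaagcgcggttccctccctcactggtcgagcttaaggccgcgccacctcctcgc

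Tpm2, the tropomyosin of slow skeletal and smooth muscle, had no optimal peak, but this depended on the list (ENSMUSG00000028464.16, chromosome 4, 43514711 to 43523765, minus strand). The pooled list held a call 36 bp from a Tpm2 start with a signal of 28.0, rank 10892. Replicate 1 called it at 20.8 (rank 7347), and the call of replicate 2 nearest to a start reached 8.26 (rank 32881). The conservative list holds 2 calls for Tpm2, this one and one of 9.33. The 5 optimal peaks within 100 kb of Tpm2 were all closer to other genes (2 to Tln1 and 1 each to Ccdc107, Creb3 and Msmp). The start of Tpm2 thus resembled those of Tpm3 in being called higher by replicate 1.

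Tmod1, tropomodulin 1, caps the pointed end of the filament and had 2 peaks, both intronic (ENSMUSG00000028328.13, chromosome 4, 46038935 to 46116032, plus strand). The higher, 34938 bp inside, had a signal of 44.3, with 26.8 in replicate 1 (rank 4114) and 14.7 in replicate 2 (rank 8848). The lower, 25503 bp inside, had 27.2, with 11.8 (rank 21897) and 9.63 (rank 21909). No leading peak of either replicate lay within 250 bp of it. Beyond that limit, replicate 1 had a leading call of 17.9 (rank 10000) 26175 bp inside. The conservative list had a call of 19.7, 26171 bp inside. Replicate 2 alone gave Tmod1 5 leading peaks, with calls outside the optimal list 5612 bp upstream of the gene start and 1366, 14240 and 25817 bp inside. At the starts of Tmod1 the pooled list held 1 call, of signal 13.5 at rank 41024. The window of the higher Tmod1 peak, which holds none of the motifs searched, reads on GRCm38, chr4:46073773-46073972, plus strand:
Tmod1 strongest summit: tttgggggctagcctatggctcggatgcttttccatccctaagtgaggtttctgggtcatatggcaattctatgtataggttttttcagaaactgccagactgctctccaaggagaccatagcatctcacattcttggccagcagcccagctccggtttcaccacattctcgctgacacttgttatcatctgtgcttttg

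Lmod2, leiomodin 2, acts at the pointed end of cardiac filaments and had 5 peaks in 4 sites (ENSMUSG00000029683.7, chromosome 6, 24597762 to 24605414, plus strand). The strongest stood 142 bp upstream of its start, with a signal of 53.3, 30.2 in replicate 1 (rank 3039) and 23.7 in replicate 2 (rank 2847). An intergenic peak 10712 bp upstream had 41.6, with 21.2 (rank 7107) and 20.4 (rank 4117), and an E-box match, CAGCTG, lay 1.5 bp from its summit. Both stood among the leading peaks of both replicates. The window of the strongest peak holds none of the motifs searched (chr6:24597520-24597719, GRCm38, plus strand).
Lmod2 strongest summit: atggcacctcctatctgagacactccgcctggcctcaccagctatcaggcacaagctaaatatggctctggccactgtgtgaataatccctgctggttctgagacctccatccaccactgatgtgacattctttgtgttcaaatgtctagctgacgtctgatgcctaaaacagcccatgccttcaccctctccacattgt

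Downstream of Lmod2 the replicates parted. The intergenic peak 14742 bp past the start had a signal of 38.2 and a replicate 1 call of 30.6 at rank 2948, close to that of the promoter. In replicate 2 the call there reached 4.99, at rank 167877. The intronic calls 2602 and 2849 bp inside were weak (11.3 and 9.46) and were each called by a single replicate within 250 bp, at rank 52815 of replicate 1 and rank 109753 of replicate 2.

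**Figure D2:**
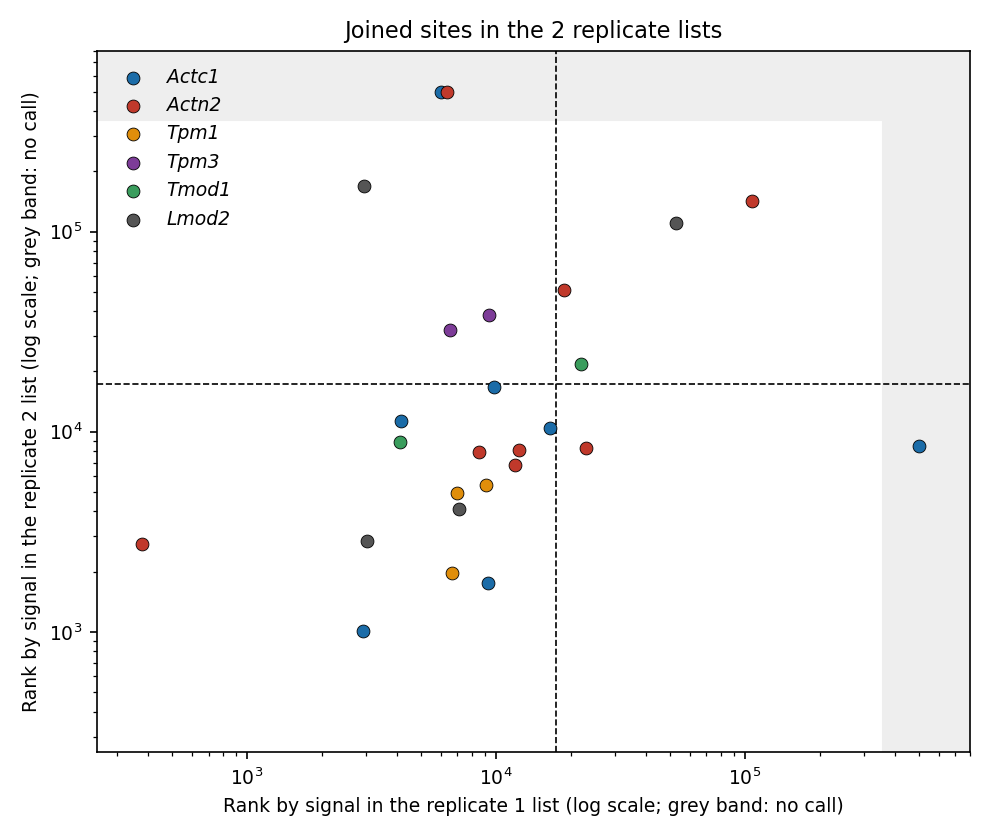
Each point is 1 of the 26 joined sites, placed by its best rank by signal in the replicate 1 list (x axis) and the replicate 2 list (y axis), both on log scales; dashed lines mark rank 17372 and the grey bands hold sites with no call within 250 bp. The 15 sites in the lower left corner were among the leading peaks of both replicates.

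Over the 36 peaks, 22 (61.1%, 95% exact interval 43.5% to 76.9%) had a summit within 250 bp among the leading peaks of both replicates, against 53.9% of all optimal peaks. Replicate 1 held 28 of them (77.8%, against 75.9% of all optimal peaks) and replicate 2 held 24 (66.7%, against 67.6%). Neither held 6 (16.7%, against 10.4%). By site, 15 of the 26 were in both: 5 of 7 at Actc1, 4 of 8 at Actn2, 3 of 3 at Tpm1, 2 of 4 at Lmod2, 1 of 2 at Tmod1 and 0 of 2 at Tpm3. Calls entered the optimal list because of these same 2 libraries, so the shares are no independent measure of agreement, and 1 replicate call can serve adjoining optimal calls. The conservative list holds 23 of the 36 intervals (63.9%), against 67.5% of all optimal peaks.

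**Figure D3:**
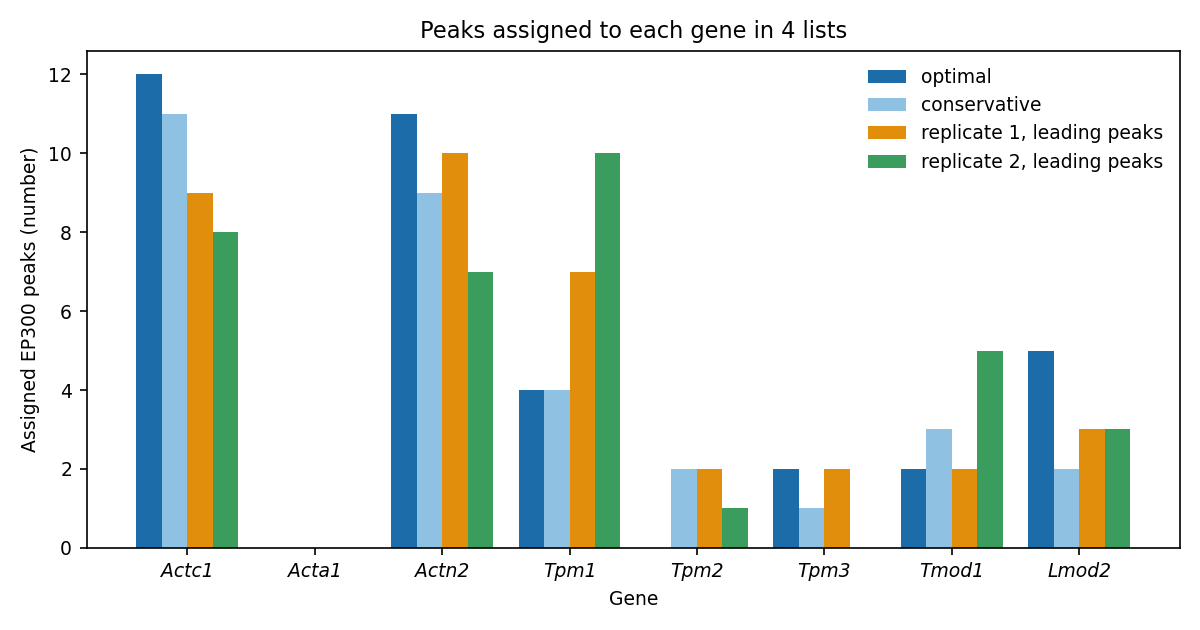
Bars give the number of EP300 peaks assigned to each gene (y axis) in the optimal list, the conservative list and the leading peaks of each replicate. Acta1 has none in any of the 4 lists, Tpm2 has none in the optimal list alone, and the order of Tpm1 and Actn2 differs between the replicates.

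The motifs under the summits varied from site to site. Windows of 200 bp were searched on both strands for CArG and MEF2 (by their degenerate consensus) and for the glucocorticoid response element (GRE: AGAACA, any 3 bases, then TGTTCT). The other motifs were exact words: GGAATG for TEAD, AGATAA for GATA factors, CAGCTG for the E-box, AAGTGG for NKX2, AGGTGTGA for T-box, TGANTCA for AP-1 (N being any base), TGACAG for MEIS and GGGCGG for SP/KLF. Of the 36 windows, 21 (58.3%, 95% exact interval 40.8% to 74.5%) held at least 1 match, against 72.5% of all optimal windows, and 15 held none. Of the 36, 12 (33.3%) held CArG, MEF2, TEAD or GATA, against 30.5% of all optimal windows. MEF2 was in 4 (11.1%, 95% exact interval 3.11% to 26.1%), against 5.48% of all optimal windows; 2 of them are at Actc1, 1 at Actn2 and 1 at Lmod2. The MEF2 share was 5.88% without replicate 1, 5.71% without replicate 2 and 6.25% in the conservative list. CArG was in 1 (2.78%, interval 0.0703% to 14.5%), against 1.44%. TEAD was in 6 (16.7%) against 14.9%, and MEIS in 5 (13.9%) against 18.1%.

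GATA was in 3 (8.33%) against 13.1%, SP/KLF in 3 (8.33%) against 21%, and AP-1 in 2 (5.56%) against 7.41%. T-box was in 2 (5.56%) against 0.744%, in Actn2 and Actc1 introns, and in none of the peaks without replicate 2. NKX2 was in 1 (2.78%) against 13.2%, and GRE in none against 0.075%. The E-box was in 1 window, that of Lmod2 (2.78%, interval 0.0703% to 14.5%) against 17.8% of all optimal windows, and was the only motif of the 11 whose overall share lay outside the interval. The intervals were not corrected for the 11 motifs. The E-box share was 9.38% in the conservative list, 8.82% without replicate 1 and 8.57% without replicate 2. In windows of 400 bp the E-box was in 25.0% of the 36, against 28.6% of all optimal peaks, and NKX2 in 16.7%, against 23.9%. Adjoining windows overlap, so they are not independent, and a match is a string of letters and no measured binding.

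**Figure D4:**
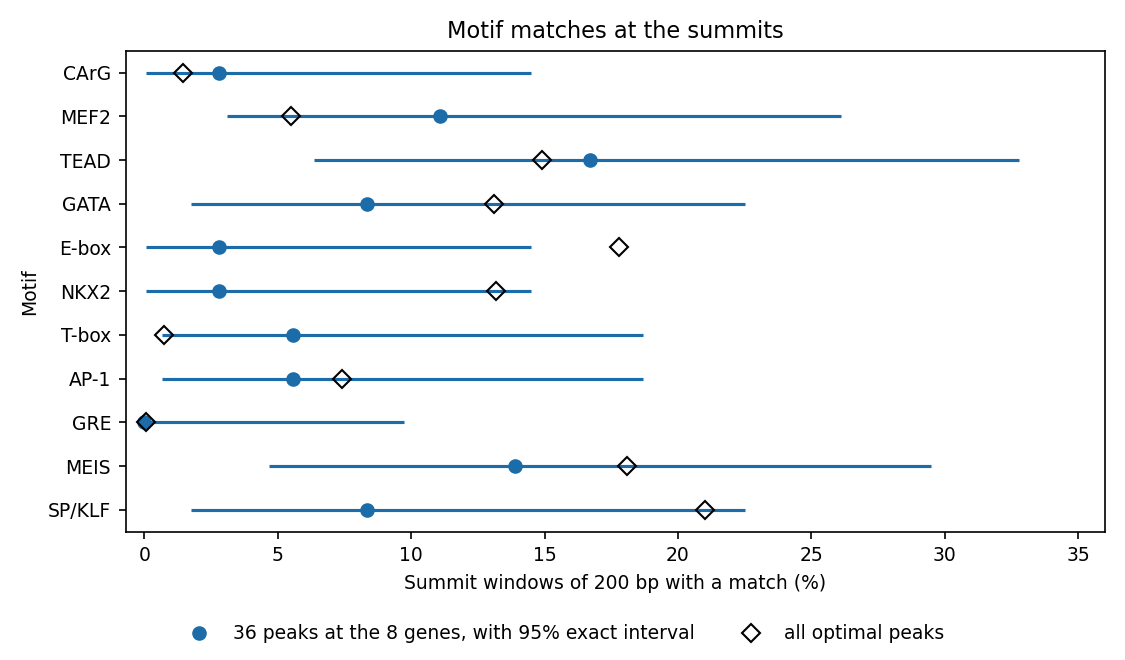
Filled points give the share of the 36 summit windows with a match to each motif (x axis, %), bars the 95% exact interval, which covers counting error only, and open diamonds the share over all 17339 optimal peaks. For CArG, MEF2 and TEAD the diamond lies inside the interval.

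Relatives of these genes held peaks as well. Of 13 paralogs outside the set 8 had a peak (61.5%), against 31.9% of all protein-coding genes. Their median was 2 peaks per gene, against a median of 3 for the 8 genes and 0 over all protein-coding genes. The cytoplasmic actins Actb and Actg1, which form the cytoskeleton of all cells, had 9 and 8, while Acta2 and Actg2, the smooth muscle actins, had none. The non-muscle alpha-actinins Actn1 and Actn4 had 6 each, and Actn3, of fast skeletal fibres, had none. Tmod3, a widely expressed tropomodulin, had 4, Tmod4 and Lmod3, of skeletal muscle, 2 each, and Tpm4 2. Tmod2, of neurons, and Lmod1, of smooth muscle, had none. Peaks were therefore not particular to the cardiac member of each family, and no test of the families was made.

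**Figure D5:**
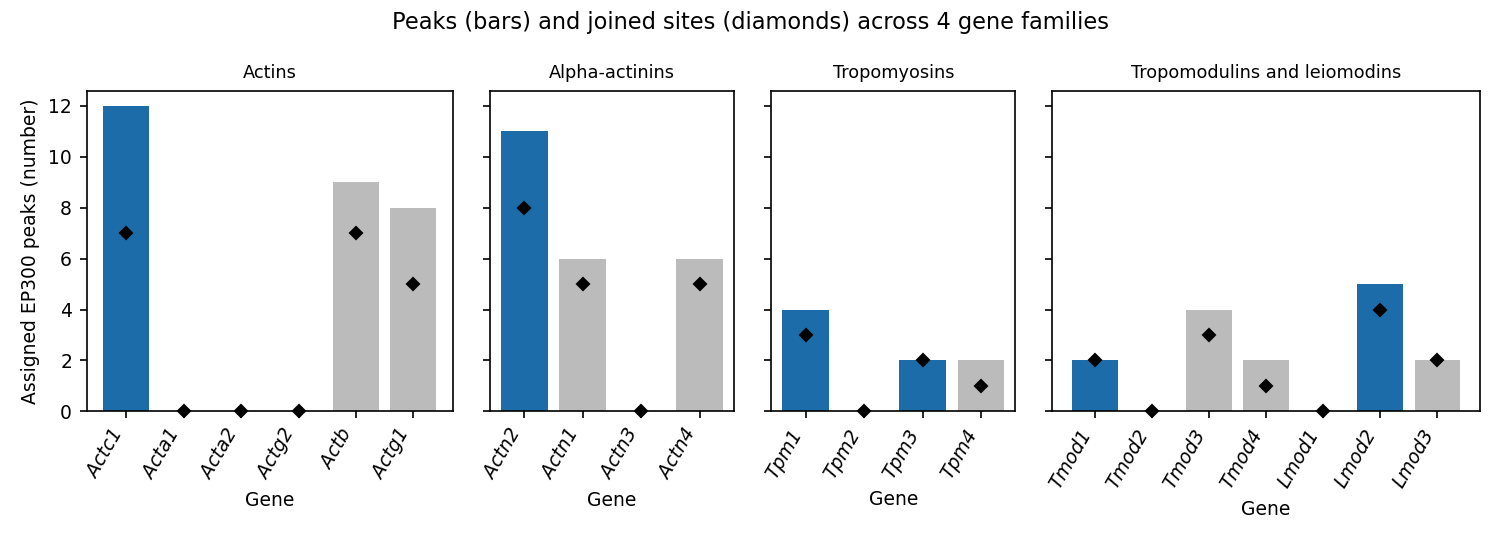
Bars give the number of EP300 peaks assigned to each gene (y axis) in 4 families, blue for the 8 genes described and grey for their paralogs, and diamonds give the number of joined sites. Actc1 and Actn2 have the tallest bars of their families, and Actb equals Actc1 at 7 sites.

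Among 20 other genes of the thin filament and Z-disc 13 had a peak (65.0%, against 31.9% of all protein-coding genes). They held 65 peaks in all. Tnnt2, cardiac troponin T, had 21, Ldb3, a Z-disc partner of alpha-actinin, 10, and Pdlim5, which also binds alpha-actinin, 6. Xirp1 had 5, and Tnni3, Nebl and Synpo2l 4 each. Srf, the serum response factor gene, had 3. Tnni1, Tnnc1 and Myoz2 had 2 each, and Nrap and Cfl2 1 each. Neb, Xirp2, Capza1, Capza2, Capzb, Fhod3 and Flnc had none in the optimal list. Together these genes held 3.44 peaks per 100 kb of territory, against 6.61 for the 8 genes. The 13 paralogs held 5.33 per 100 kb and the 6 heart muscle markers 11.2. A difference between the lists was not tested.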

How the data were processed

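Newborn heart tissue was profiled for EP300 by ChIP-seq in 2 replicates. Per the file headers, the authors called peaks on mm10 for each replicate and for the pooled reads (300000 calls each); replicate 1 and the pool were set against 2 further files and replicate 2 against 1, taken here to be controls. They derived the optimal and conservative lists by the irreproducible discovery rate (IDR). Caller, aligner and threshold: not given in the sources used here. Every deposited peak has the authors' signal value (formula unknown) and a deposited −log10 q. Peaks of both IDR lists also have a deposited score of at most 1000. Replicate signal values have separate scales and were compared only by rank. The files hold no read counts, so the depth is unknown.

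Computed here were nearest starts among 54361 TSSs (GENCODE M21), recurrence, joined sites, exact (Clopper-Pearson) 95% intervals and motif matches, with Python 3.11.15, pandas 2.3.3 and SciPy 1.17.1, checked on simulated data. A replicate's value at a peak is its strongest call within 250 bp. All 8 genes were in the RefSeq promoter table. The genes and lists were chosen with earlier results of these data known. Named are all 8 genes, the fixed lists (of the markers only some) and the nearest genes of other peaks. Strongest summits were shown by rule, and the promoters and the far upstream Actc1 window were chosen after their values were seen. The alternatives changed the list, distances, TSS set, windows and replicates. No test was made, since there is 1 group.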

Additional observations from a re-analysis of the deposited data

How the results depend on the processing

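The number of assigned peaks was 36, and it fell to 14 among peaks of above-median signal and to 16 at a −log10 q of at least 2. It ranged from 26 (joined sites) to 36 in the 7 alternatives that changed the list, distance, joining or TSS set, and from 34 to 35 with 1 replicate left out. Genes with a peak ranged from 5 to 7 over all alternatives. The share of peaks in both replicates, 61.1%, was 36.1% within 100 bp, 83.3% in the full replicate lists (87.1% for all optimal peaks) and 13.9% among replicate peaks with a −log10 q of at least 2 (19.4% for all). The share within 1 kb of a TSS, 22.2%, reached at most 34.3% (without replicate 2), and within 500 bp it was 16.7%. The CArG share was 0% among distal peaks, since its 1 window is a promoter. With 1 replicate left out it was 0% (without replicate 1) to 5.71% (without replicate 2), and the MEF2 share was 5.88% and 5.71%, from 11.1%. Of single genes, without replicate 1 (the leading peaks of replicate 2) Actn2 had 7 peaks, Tpm1 10, Tpm2 1, Actc1 8, Tmod1 5, Lmod2 3 and Tpm3 0, and without replicate 2 Tpm1 had 7, Tpm2 2 and Lmod2 3; Acta1 had 0 throughout. At a window of 400 bp the E-box share was 25.0% (28.6% for all optimal peaks) and the NKX2 share 16.7% (23.9%), both from 2.78%. With 1 start per gene Actn2 had 7. Joined sites gave Actc1 7 and Actn2 8. Among peaks of above-median signal Actc1 had 3 and Actn2 4, and at a −log10 q of at least 2 they had 3 and 5. Tmod1 had 0 within 20 kb. The causes were not tested. No paired analysis was possible because there is only 1 group. The unknown depth limits all absent calls.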
